A study of Mus musculus with 8 samples.

Results

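The genes described are 7 secreted factors that NK cells and type 1 innate lymphoid cells are known to make: the cytokines Ifng, Tnf and Csf2 and the chemokines Xcl1, Ccl3, Ccl4 and Ccl5. They were taken as the rows of the deposited gene table that carry one of these symbols. The rows were matched by name, but the members were chosen with earlier results of these data known. Each symbol matched 1 row, which gave 7 of the 34745 genes in the table. Their RNA was compared in bulk libraries of 3 cell populations sorted live from fetal liver, all of it from wild-type B6 mice that had received no treatment. The populations are named CLP (n = 3 libraries), ILCP (n = 3) and ILC1/3P (n = 2) in the labels. Each was sorted as lineage-negative cells with CD45 and CD127 and without CD25. CLP were sorted on Flt3. ILCP and ILC1/3P lacked Flt3 and carried the integrin α4β7, and ILCP had PD-1 without CD94 whereas ILC1/3P had CD94 without PD-1. The labels give 6-8 weeks as an age, which cannot be that of the fetal tissue and is tied to no animal, and they do not say whether replicate libraries came from separate animals or litters. The p-values below therefore speak only of the spread among these libraries, which may be technical.

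Of the transcripts behind the gates, those of Flt3, PD-1 and CD94 were highest in the population sorted on each. Flt3 was at 459 ± 96.1 CPM among CLP libraries (SD, n = 3) and at 0.427 ± 0.739 among ILCP libraries (n = 3), and no read of it was counted in ILC1/3P (n = 2). Transcripts for PD-1 (Pdcd1) were absent from the CLP counts and averaged 77.7 ± 31.4 CPM in ILCP against 13.8 ± 5.16 in ILC1/3P. Klrd1, the CD94 gene, averaged 52.2 ± 12.4, 44.7 ± 26.2 and 1407 ± 315 CPM in CLP, ILCP and ILC1/3P. Other gate transcripts did not all follow the sort. Il2ra, the gene of CD25, for which all populations were sorted negative, had 0 counts in CLP, 162 in ILCP and 21 in ILC1/3P, and was called higher than in CLP in both (adjusted p = 0.0209 and 0.0217). The first call was lost without any 1 of the CLP or ILCP libraries, and the second without CLP replicate 1 or ILC1/3P replicate 2 (adjusted p up to 0.0825). Itga4, the α4 gene, was lower in ILC1/3P than in CLP by a log2 difference of -1.46 (adjusted p = 0.0036). Its partner Itgb7 was higher than in CLP in ILCP (4.16, adjusted p = 0.00576) and in ILC1/3P (3.69, adjusted p = 0.00545), values that were 5.31 and 4.84 without CLP replicate 1. Il7r, the CD127 gene, averaged 434 ± 79.9, 484 ± 20.5 and 215 ± 0.711 CPM in the 3 populations, and Ptprc, the CD45 gene, was called in no comparison. CPM are counts scaled to a common library size after TMM, an adjustment for differences in RNA composition. Total counts ran from 4991939 to 8082476 per library, and 13436 genes passed the filter on low counts. In bulk RNA of sorted cells, fewer cells that express a gene and less RNA of it per cell cannot be told apart.

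Interferon-gamma, the product of Ifng, activates macrophages and raises antigen presentation, and its receptor is built from the chains Ifngr1 and Ifngr2. Tumour necrosis factor and GM-CSF, the products of Tnf and Csf2, act on endothelium and on myeloid cells. XCL1 draws dendritic cells that carry XCR1, and CCL3, CCL4 and CCL5 draw monocytes, T cells and other leukocytes to sites of inflammation. Innate lymphoid cells release several of these factors soon after stimulation, and many of the mRNAs are short-lived.

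The 7 genes did not share one profile across the 3 populations. Ifng and Csf2 had no counts in CLP, were low in ILCP and were highest in ILC1/3P. Ccl3 and Ccl4 were abundant in CLP and in ILC1/3P and low in ILCP. Ccl5 was near 0 in CLP and abundant in both other populations, Xcl1 was detected almost only in ILC1/3P, and Tnf was low throughout and called in no comparison. These profiles are visible library by library in the plot of CPM for each gene.

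**Figure D1:**
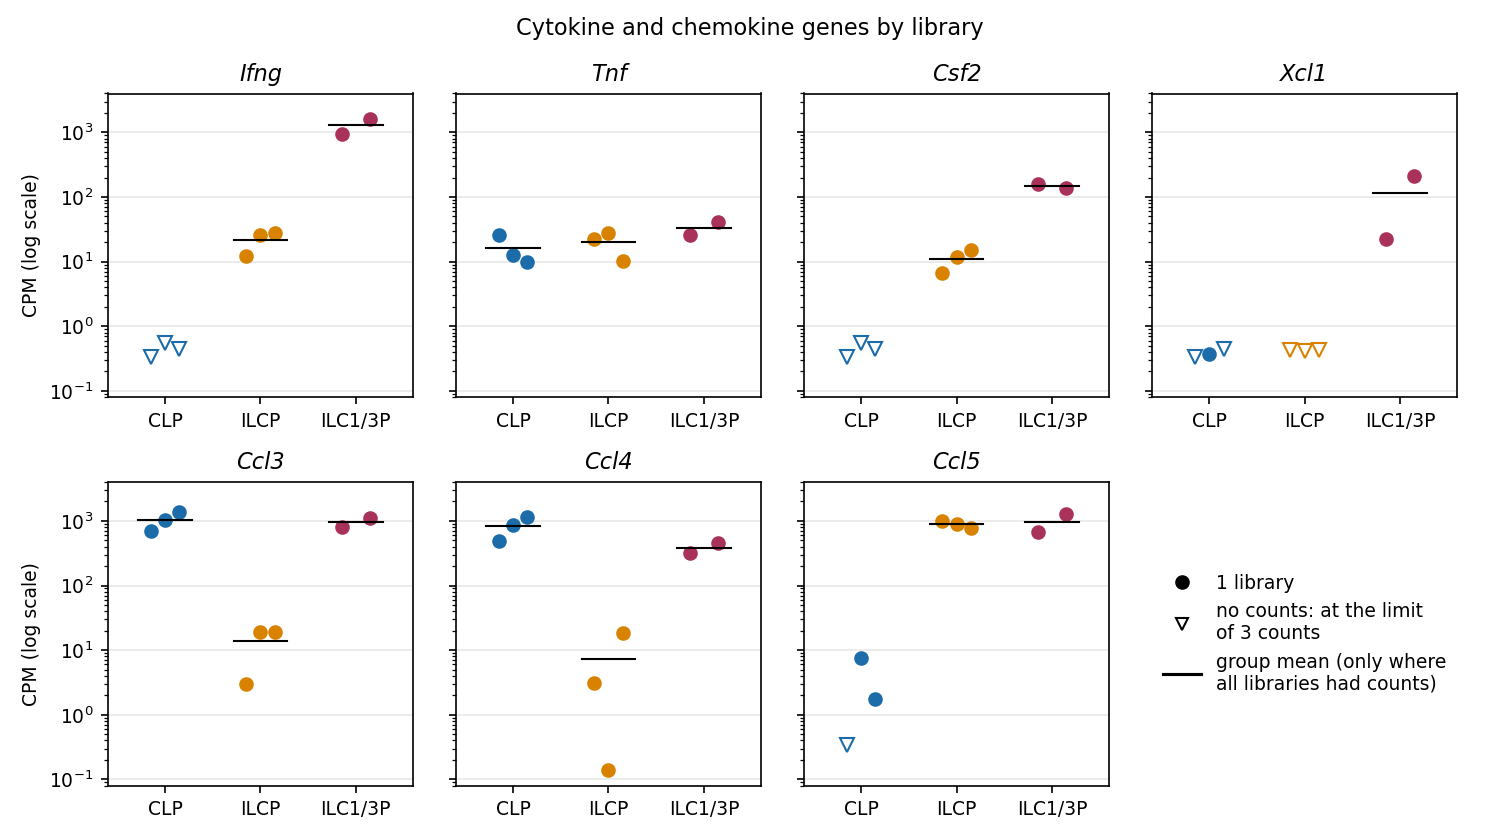
Each panel shows 1 gene, with CPM on a log axis for every CLP, ILCP and ILC1/3P library; bars are group means, drawn where all libraries of the group had counts, and open triangles mark libraries with no counts, placed at the CPM that 3 counts would give. Ccl3 and Ccl4 sit high, low and high again across the groups, while Ccl5 sits at 671 CPM or above in every ILCP and ILC1/3P library.

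All 7 genes passed the filter on low counts, although Ifng, Csf2 and Xcl1 passed only through the populations in which they were high. Differences were tested with edgeR's quasi-likelihood test over all genes, and a gene was called at a Benjamini-Hochberg adjusted p under 0.05. In ILCP against CLP, 3 members were higher (Ifng, Csf2, Ccl5), 2 were lower (Ccl3, Ccl4) and 2 were not called, where 6.79% of all genes tested were called (3.91% higher and 2.87% lower). In ILC1/3P against CLP, 4 were higher (Ifng, Csf2, Xcl1, Ccl5) and 3 were not called, where 23.5% of all genes were called (11.8% higher and 11.7% lower). In ILC1/3P against ILCP, 5 were higher (Ifng, Csf2, Xcl1, Ccl3, Ccl4) and Tnf and Ccl5 were not called, where 16.3% of all genes were called (8.06% higher and 8.25% lower). No member was called lower in ILC1/3P in either comparison, by edgeR, by DESeq2 or at an unadjusted p under 0.05 (0 in each). The libraries of the groups did not overlap for 3 members higher and 2 lower in ILCP against CLP, where 28.2% of all genes did not overlap (14.1% higher and 14% lower). In ILC1/3P against CLP this held for 5 higher and 1 lower, beside 52.4% of all genes (23.3% and 29.1%), and in ILC1/3P against ILCP for 5 higher and 0 lower, beside 44.8% (20.2% and 24.7%). The median log2 difference over all genes was 0.01, -0.25 and -0.23, and over the members 0.31, 8.39 and 5.73. The comparisons share libraries, so their values are set side by side and not counted as separate evidence.

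Because TMM gave the ILC1/3P libraries factors of 0.671 and 0.753 against 1.05 to 1.23 for the rest, the scaling matters for small differences. With library size alone, the median over all genes moved by -0.68 in ILC1/3P against CLP and by -0.63 against ILCP. The calls over all genes then went from 1592 higher and 1571 lower to 946 higher and 2807 lower against CLP, and from 1083 higher and 1109 lower to 474 higher and 2141 lower against ILCP. The member calls were the same under both scalings.

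**Figure D2:**
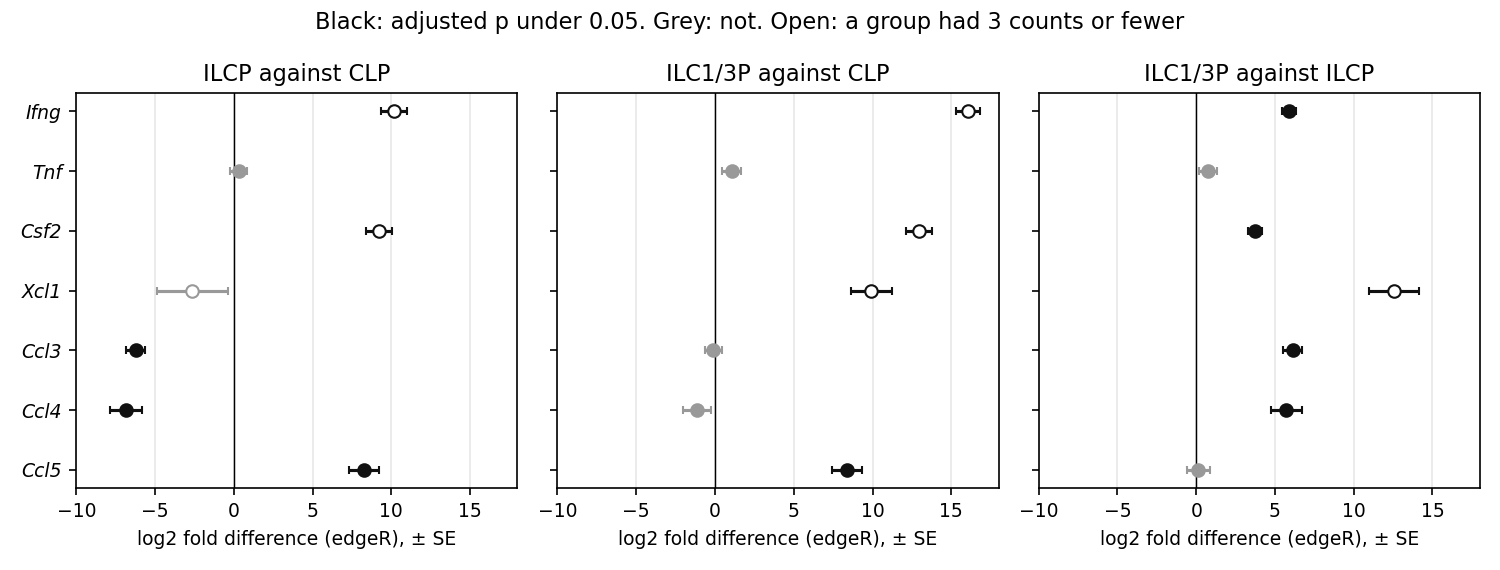
Log2 fold differences of the 7 genes with their standard errors in the 3 comparisons, from edgeR; black marks have an adjusted p under 0.05, grey marks do not, and open marks have 3 counts or fewer in a group, so that the fitted size depends on the prior. Ifng, Csf2 and Xcl1 lie far to the right in both comparisons of ILC1/3P, and Ccl3 and Ccl4 lie at -6.23 and -6.85 for ILCP against CLP.

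Ifng (ENSMUSG00000055170) lies on chromosome 10 at 118441047 to 118445892 of mm10, on the plus strand. It had 0 counts in each of the 3 CLP libraries, 86, 188 and 194 counts in ILCP and 5789 and 6866 counts in ILC1/3P. These were 12.2, 26.0 and 27.3 CPM in ILCP and 952 and 1623 CPM in ILC1/3P, so that no library of one population overlapped another population. Against a floor of 3 counts pooled over the CLP libraries, Ifng was at least 153-fold higher in ILCP (adjusted p = 6.07e-05) and at least 8594-fold higher in ILC1/3P (adjusted p = 1.95e-06). ILC1/3P exceeded ILCP by 5.88 ± 0.43 on the log2 scale (SE, adjusted p = 0.000109). The deposited FPKM, which also divide by transcript length, placed Ifng at rank 165 and 115 among all genes in the ILC1/3P libraries and between 2356 and 3764 in ILCP.

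Csf2 (ENSMUSG00000018916, chromosome 11, 54247271 to 54249667, minus strand) had the same order of populations as Ifng. It had 0 counts in every CLP library, 47, 84 and 108 counts in ILCP (6.68, 11.6 and 15.2 CPM) and 955 and 590 counts in ILC1/3P (157 and 139 CPM). All ILC1/3P libraries were above all ILCP libraries. Csf2 was at least 78.3-fold higher in ILCP than in CLP (adjusted p = 0.000122) and at least 1049-fold higher in ILC1/3P than in CLP (adjusted p = 9.36e-06), and the difference between ILC1/3P and ILCP was 3.73 ± 0.46 (adjusted p = 0.00114). Its counts were 54.7%, 44.7% and 55.7% of those of Ifng in the ILCP libraries and 16.5% and 8.59% in the ILC1/3P libraries. The gap between the 2 genes thus widened in ILC1/3P, in which Ifng was the more abundant also per length, at 747 ± 218 against 132 ± 21.8 FPKM (SD, n = 2), whereas in ILCP they had 19.8 ± 7.03 and 15.3 ± 5.64 FPKM (n = 3). Il3, the cytokine gene 15.6 kb from Csf2, had no counts in any of the 8 libraries.

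Tnf (ENSMUSG00000024401, chromosome 17, 35199381 to 35202007, minus strand) was measured in all 8 libraries at a low level. It had 25.5, 12.9 and 9.93 CPM in CLP, 22.0, 27.6 and 10.4 CPM in ILCP and 25.8 and 41.4 CPM in ILC1/3P. The populations overlapped in ILCP against CLP and in ILC1/3P against ILCP, and the lowest ILC1/3P library stood only just above the highest CLP library. The log2 differences were 0.31 ± 0.54 for ILCP against CLP (adjusted p = 0.867), 1.06 ± 0.60 for ILC1/3P against CLP (adjusted p = 0.224) and 0.74 ± 0.60 for ILC1/3P against ILCP (adjusted p = 0.44). Its mean FPKM were 6.15 ± 3.64, 7.24 ± 3.04 and 7.74 ± 1.93. The genes on either side of Tnf are also cytokines of its family. Lta, 1.16 kb away, averaged 61.4 ± 2.57, 438 ± 157 and 523 ± 8.83 CPM in CLP, ILCP and ILC1/3P, and was higher in ILCP by 2.84 ± 0.28 (adjusted p = 7.77e-05) and in ILC1/3P by 3.09 ± 0.30 (adjusted p = 4.69e-05) than in CLP. Ltb, 3.06 kb away on the other side, averaged 155 ± 24.3, 763 ± 57.7 and 1461 ± 270 CPM and was higher by 2.30 ± 0.22 (adjusted p = 6.67e-05) and 3.23 ± 0.24 (adjusted p = 6.55e-06). Both flanking genes were thus called against CLP and Tnf was not; the difference between the genes was not tested.

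The mRNAs of Ifng, Tnf and Csf2 carry AU-rich elements in their 3′ untranslated regions, sequences that are known to be bound by proteins that destabilise or stabilise the message. In the GENCODE M21 transcripts the pentamer ATTTA, counted on the sense strand with overlaps, occurred 6 times in the 631 bases of Ifng, 8 times in the 764 bases of Tnf and 9 times in the 317 bases of Csf2. Among regions of like length, 1.41%, 0.301% and 0.0524% held as many. Ccl3 held 5 in 409 bases (1.14%), Ccl4 2 in 302 bases (12.9%), Xcl1 1 in 141 bases (17.3%) and Ccl5 0 in 199 bases. The longer TATTTAT occurred 4, 8 and 9 times in Ifng, Tnf and Csf2, 1 time each in Ccl3, Ccl4 and Xcl1, and 0 times in Ccl5. By this longer form Ccl3 stood with Ccl4 and Xcl1. The densest stretch of each of the 4 members with most pentamers is shown with its pentamers in capitals.
Ifng, bases 69 to 98: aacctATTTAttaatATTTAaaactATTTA
Tnf, bases 437 to 466: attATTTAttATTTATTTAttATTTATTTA
Csf2, bases 230 to 259: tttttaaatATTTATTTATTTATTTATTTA
Ccl3, bases 159 to 188: ATTTAATTTAatcctattggtttaatacta
Positions are counted from the first base after the coding sequence. Members rich in the element followed different profiles, since Ifng and Csf2 had no counts in CLP, Ccl3 was abundant there and Tnf was called in no comparison.

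Xcl1 (ENSMUSG00000026573, chromosome 1, 164931644 to 164935527, minus strand) differed widely between the replicates of the population in which it was detected. The CLP libraries had 0, 2 and 0 counts and the ILCP libraries 0 counts each, while the ILC1/3P libraries had 135 and 883 counts, or 22.2 and 209 CPM. Both ILC1/3P libraries stood far above all others and far apart from each other. Xcl1 in ILC1/3P was 1037 times its level in CLP (95% counting interval 286 to 8574, adjusted p = 0.000604), and at least 703-fold higher than in ILCP (adjusted p = 0.0012), against a floor of 3 counts pooled over the ILCP libraries. Without ILC1/3P replicate 2, the fitted log2 difference from CLP fell from 9.93 to 7.45 (adjusted p = 0.0402) and that from ILCP from 12.57 to 10.27, and without ILC1/3P replicate 1 they were 10.79 and 13.44. Without CLP replicate 2, which holds the only 2 CLP counts, the difference from CLP was 12.60, and without CLP replicate 1 it was 9.26. CLP and ILCP were both at or under 3 counts, so no fold was formed between them.

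Ccl3 (ENSMUSG00000000982, chromosome 11, 83647844 to 83649355, minus strand) and Ccl4 (ENSMUSG00000018930, chromosome 11, 83662584 to 83664683, plus strand) encode related chemokines and lie 13.2 kb apart on opposite strands. Ccl3 had 698, 1045 and 1363 CPM in CLP, 2.99, 19.2 and 19.0 CPM in ILCP and 811 and 1099 CPM in ILC1/3P. Every ILCP library was below every library of the other populations, and CLP and ILC1/3P overlapped in CPM. The log2 difference of Ccl3 was -6.23 ± 0.61 for ILCP against CLP (adjusted p = 6.97e-05) and 6.12 ± 0.62 for ILC1/3P against ILCP (adjusted p = 0.000249). Between ILC1/3P and CLP the difference was -0.12 ± 0.54 (adjusted p = 0.906), and it ran from -0.78 to 0.22 over the alternative settings. In FPKM these populations did not overlap, with 1121, 1485 and 1933 in CLP and 796 and 962 in ILC1/3P. Per length, Ccl3 ranked 18 to 29 among all genes in the CLP libraries, 106 and 118 in ILC1/3P and 2162 to 6046 in ILCP.

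Ccl4 had 483, 851 and 1167 CPM in CLP, 3.13, 0.138 and 18.4 CPM in ILCP and 315 and 453 CPM in ILC1/3P. ILCP was again below all other libraries, but the 2 ILC1/3P libraries were below all 3 CLP libraries, unlike for Ccl3 in CPM. The difference between ILCP and CLP was -6.85 ± 1.01 (adjusted p = 0.00146) and that between ILC1/3P and ILCP was 5.73 ± 0.99 (adjusted p = 0.00326). ILC1/3P against CLP gave -1.12 ± 0.89 (adjusted p = 0.395). The ILCP libraries spread from 1 to 131 counts of Ccl4, and without ILCP replicate 3, the highest, the first 2 differences became -8.99 and 7.87. The call between ILC1/3P and ILCP was lost when genes of low counts were not filtered out (5.72, adjusted p = 0.051).

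The balance of the 2 chemokines was then compared within each library. The ratio of Ccl3 to Ccl4 in FPKM was 1.24, 1.06 and 1.01 in CLP (1.10 ± 0.124, SD, n = 3) and 2.22 and 2.09 in ILC1/3P (mean 2.16, n = 2), with no overlap. The log2 ratio differed by 0.97, and no test is given, since 3 against 2 libraries cannot reach an exact permutation p under 0.1. In ILCP the ratio was 0.822, 120 and 0.888, and the second of these rests on 1 count of Ccl4 beside 139 of Ccl3. The longest run of bases that the transcripts of Ccl3 and Ccl4 share is 9, and no 50-base word of Ccl3, Ccl4, Ccl5 or Tnf occurs in the transcripts of another gene.

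Ccl5 (ENSMUSG00000035042, chromosome 11, 83525778 to 83530518, minus strand) had 0, 41 and 12 counts in CLP, or 0, 7.54 and 1.78 CPM. It had 984, 908 and 774 CPM in ILCP and 671 and 1259.6 CPM in ILC1/3P, and these 2 populations overlapped. Ccl5 was higher than in CLP by 8.27 ± 0.93 on the log2 scale in ILCP (adjusted p = 0.000196) and by 8.39 ± 0.95 in ILC1/3P (adjusted p = 0.000133). ILC1/3P against ILCP gave 0.12 ± 0.73 (adjusted p = 0.95), a value that changed sign when library size alone was used (-0.54, adjusted p = 0.643). The size of the difference from CLP depends on the few CLP counts: without CLP replicate 2 it was 10.07 in ILCP and 10.19 in ILC1/3P, and without CLP replicate 1 it was 7.60 and 7.72. Per length, Ccl5 ranked 46 to 74 among all genes in ILCP and 148 and 228 in ILC1/3P.

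Levels of different genes were ordered in FPKM, which allow for length. In CLP, Ccl3 (1513 ± 407 FPKM, n = 3) and Ccl4 (1409 ± 510) came first and did not differ beyond their spread. Tnf (6.15 ± 3.64), Ccl5 (2.82 ± 3.58) and Xcl1 (0.255 ± 0.442) followed, each within the spread of the next, and Ifng and Csf2 were at 0. In ILCP, Ccl5 stood first at 820 ± 123 FPKM. Ifng (19.8 ± 7.03), Ccl3 (19.4 ± 12.9), Csf2 (15.3 ± 5.64), Ccl4 (12.2 ± 16.4) and Tnf (7.24 ± 3.04) followed, neighbours in this order being within their spread, and Xcl1 was at 0. In ILC1/3P, Ccl3 (879 ± 117, n = 2), Ifng (747 ± 218), Ccl5 (562 ± 200) and Ccl4 (409 ± 71.7) came first, each within the spread of its neighbour, then Xcl1 (150 ± 167) and Csf2 (132 ± 21.8), and Tnf stood last at 7.74 ± 1.93. The summed CPM of the 7 genes ran from 1207 to 2541 in CLP, from 865 to 1031 in ILCP and from 2954 to 4824 in ILC1/3P. Nearly all of it was Ccl3 and Ccl4 in CLP and Ccl5 in ILCP, while ILC1/3P had Ifng, Ccl3, Ccl4 and Ccl5 together.

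Ccl5, Ccl3 and Ccl4 belong to one cluster of chemokine genes on chromosome 11, which also holds Ccl9 and Ccl6 between Ccl5 and Ccl3. Genes within 100 kb of each member were read from the table. Ccl9, whose product draws myeloid cells, averaged 144 ± 52.5, 7.01 ± 5.26 and 3.13 ± 4.42 CPM in CLP, ILCP and ILC1/3P. It was lower than in CLP by log2 differences of -4.36 in ILCP (adjusted p = 0.00757) and -5.44 in ILC1/3P (adjusted p = 0.00366). The ILCP call was lost without ILCP replicate 3 (-4.07, adjusted p = 0.0561) and the value was -5.17 without ILCP replicate 1; both calls were lost with no filter on low counts (adjusted p = 0.106 and 0.0545). The ILC1/3P value was -12.91 without ILC1/3P replicate 1 and -4.52 without replicate 2. Ccl6 averaged 32.1 ± 9.55, 3.51 ± 4.80 and 4.14 ± 5.85 CPM and was called in no comparison. Along the cluster, then, Ccl5 was low where Ccl9 was high, and Ccl3 and Ccl4 were high in ILC1/3P, in which Ccl9 was not. Ifng has no other gene of the table within 100 kb, and none of the 4 genes within that distance of Xcl1 passed the filter.

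**Figure D3:**
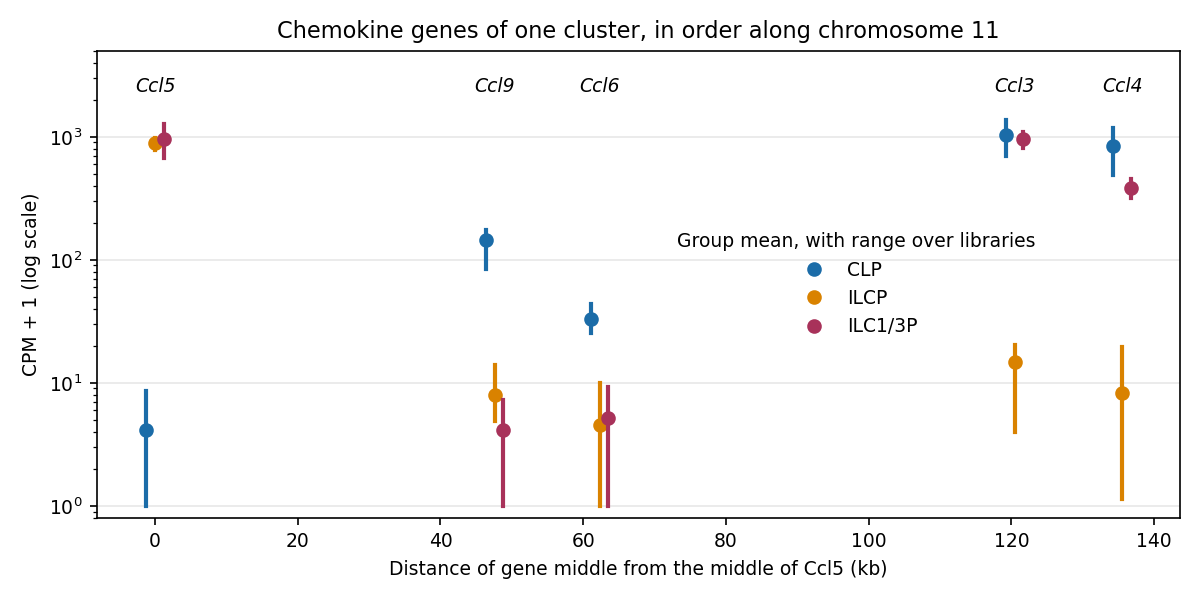
Mean CPM + 1 (log axis) of the 5 expressed chemokine genes of the cluster in CLP, ILCP and ILC1/3P, with the range over libraries as vertical bars, against the distance of each gene's middle from that of Ccl5. Ccl3 and Ccl4 are high in CLP and ILC1/3P, Ccl9 in CLP alone, and Ccl5 in ILCP and ILC1/3P.

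The genes whose log2 CPM over the 8 libraries were most like each member were then listed, out of 11456 genes, leaving out predicted genes, pseudogenes and antigen receptor segments. These values describe libraries that fall into 3 groups, and a high r says mainly that 2 genes order the groups alike. Ifng was most like Csf2 (r = 0.995), Tonsl (0.992) and Tmem37 (0.992), and Csf2 most like Tmem37 (0.998), Ifng and Klrg1 (0.993). Tmem37 and Klrg1, like the pair itself, had no counts in CLP. Ccl5 was most like Qpct (0.993), Ikzf2 (0.990) and Maf (0.990), the last 2 being transcription factors. Ikzf2 averaged 9.57, 340 and 383 CPM in CLP, ILCP and ILC1/3P. Xcl1 was most like Dzank1, Gbp10 and Itga1 (0.994 each), of which the last encodes the integrin CD49a, all 3 with no counts in CLP and ILCP and 6.09 to 12.4 CPM in ILC1/3P. Ccl3 was most like Parp14 (0.987), Gnl3 (0.979) and Atic (0.959), Ccl4 most like Kctd12 (0.975), Dock11 (0.972) and Med23 (0.969), and Tnf most like Clip4 (0.970), Coro2a (0.947) and Ubr2 (0.925). Ccl3 and Ccl4 had an r of 0.905 with each other.

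RefSeq promoters (GRCm38.p6) were matched for 5 of the 7 members: Ifng, Tnf, Csf2, Xcl1 and Ccl3. The 250 bases before each start site were searched on both strands. One motif was the TATA box, as the letters TATAAA, and another the core bound by NFAT, as GGAAAA. RUNX factors were represented by TGTGGT and T-box factors by AGGTGT. STAT factors were represented by TTCNNNGAA and AP-1 by TGANTCA, and the NF-κB site was searched under its name. No 2 of these overlapped in the members. The part of 3 promoters nearest the start is shown, with matches in capitals, because Ifng, Tnf and Ccl3 had different profiles.
Ifng, chr10:118440921-118441045, plus strand: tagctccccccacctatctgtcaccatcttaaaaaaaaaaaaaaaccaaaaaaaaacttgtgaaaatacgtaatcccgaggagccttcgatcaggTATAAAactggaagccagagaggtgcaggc
Tnf, chr17:35202008-35202132, minus strand: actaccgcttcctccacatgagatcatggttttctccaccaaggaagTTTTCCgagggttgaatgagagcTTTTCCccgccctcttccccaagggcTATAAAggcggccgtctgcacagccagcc
Ccl3, chr11:83649379-83649503, minus strand: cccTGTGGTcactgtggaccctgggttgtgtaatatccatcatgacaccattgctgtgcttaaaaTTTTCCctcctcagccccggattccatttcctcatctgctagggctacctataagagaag
Ifng and Tnf each have TATAAA, from base -30 and from base -29, a match that 12.4% of 32851 promoters hold. Tnf has the NFAT core on the opposite strand at 2 places and Ccl3 at 1, as 20.4% of promoters do, and Ccl3 has the RUNX letters from base -122, as 14.0% do. In the parts not shown, Ifng has the STAT letters from base -249 (7.02% of promoters), Tnf the T-box letters from base -137 (11.8%) and Xcl1 the RUNX letters on the opposite strand. AP-1 (6.75% of promoters) and NF-κB (1.41%) letters matched none of the 5. Other forms of the NF-κB site were not searched. Csf2 had no match, and its RefSeq start lies 232 bases upstream of the start of the gene in the deposited table. A match is a string of letters and not a measured site.

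The receptors of the 7 factors were read in the same libraries, 11 genes of which all were tested. Beside this list and those below, 6.79% of all genes were called in ILCP against CLP. The shares were 23.5% in ILC1/3P against CLP and 16.3% in ILC1/3P against ILCP. In ILC1/3P against CLP, Ifngr2 and Csf2ra were lower and Ifngr1 was higher. Ifngr2 was the only one called in ILC1/3P against ILCP, where an unadjusted p under 0.05 gave 2 higher and 3 lower and DESeq2 gave 2 higher and 2 lower. Csf2rb, the signalling chain of the GM-CSF receptor, was the only one called in ILCP against CLP (0 higher and 1 lower by edgeR, 4 higher and 3 lower by DESeq2 and at an unadjusted p under 0.05). Its counts were 173 in CLP, 0 in ILCP and 1 in ILC1/3P, at least 58.7-fold lower in ILCP than in CLP (adjusted p = 0.0248), a call lost without any 1 of the CLP or ILCP libraries (adjusted p up to 0.118). That of Csf2ra (-2.84, adjusted p = 0.0355) was lost in 5, among them without CLP replicate 1, CLP replicate 3 or either ILC1/3P replicate (adjusted p up to 0.143). The receptor chain Ifngr2 was lower where Ifng was highest, with means of 127 ± 7.11, 49.4 ± 10.5 and 3.59 ± 3.07 CPM in CLP, ILCP and ILC1/3P. Its difference was -5.09 ± 0.56 for ILC1/3P against CLP (adjusted p = 0.0001) and -3.73 ± 0.53 against ILCP (adjusted p = 0.00118). Without ILC1/3P replicate 1 these were -6.47 and -5.11, and without replicate 2 they were -4.46 and -3.09. Ifngr1, the chain that binds the ligand, averaged 336 ± 43.6, 446 ± 62.4 and 573 ± 154 CPM. Its call against CLP (0.77, adjusted p = 0.046) was lost in 9 of 14 alternative settings, among them library size alone (0.11) and leaving out any CLP library. Xcr1, the XCL1 receptor, had 1.33 ± 1.49, 13.4 ± 1.05 and 13.9 ± 14.99 CPM and was not called.

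Among 17 tested genes that are known to regulate type 1 cytokines, the comparison of ILCP with CLP gave 5 higher and 1 lower, that of ILC1/3P with CLP 9 and 1, and that of ILC1/3P with ILCP 3 and 0 (1 lower at an unadjusted p under 0.05, 0 by DESeq2). The numbers higher fell to 3 without CLP replicate 3 or ILCP replicate 3, to 6 without CLP replicate 1 or 3, and to 1 without ILC1/3P replicate 2. With library size alone the last 2 became 8 higher and 3 lower, and 2 higher and 1 lower, and the list's median against ILCP changed sign from 0.44 to -0.18. In the main fit, 3.91%, 11.8% and 8.06% of all genes were called higher in the 3 comparisons and 2.87%, 11.7% and 8.25% lower. Id2, a transcriptional inhibitor that innate lymphoid cells need, averaged 208 ± 68.7, 4537 ± 414 and 12045 ± 2925 CPM and was higher than in CLP by 4.44 ± 0.31 (adjusted p = 6.04e-06) in ILCP and 5.85 ± 0.34 (adjusted p = 1.63e-06) in ILC1/3P. The IL-18 receptor chain Il18r1 had 3.15 ± 3.67, 117 ± 28.2 and 137 ± 32.1 CPM, higher than in CLP by 5.26 ± 0.84 (adjusted p = 0.00231) and 5.49 ± 0.88 (adjusted p = 0.000979). Without CLP replicate 2 these were 6.57 and 6.80, and without CLP replicate 3 they were 4.66 and 4.89; the ILCP call was lost with no filter on low counts (adjusted p = 0.0612). Tbx21, which encodes T-bet, a driver of Ifng transcription, was low, at 0.384 ± 0.569, 3.96 ± 3.07 and 16.7 ± 5.07 CPM, and its call in ILC1/3P against CLP (adjusted p = 0.0252) was lost without CLP replicate 1, without CLP replicate 2 and without ILC1/3P replicate 2 (adjusted p up to 0.09). Without CLP replicate 3 its difference went from 5.37 to 7.62. Irf8, a regulator of myeloid and lymphoid fate, had 19 counts in all in ILCP and averaged 179 ± 103 CPM in CLP and 21.7 ± 8.11 CPM in ILC1/3P, so that it too was lowest in ILCP. Its difference was -7.62 for ILCP against CLP (adjusted p = 0.000131) and 4.57 for ILC1/3P against ILCP (adjusted p = 0.00302), values that were -9.61 and 6.56 without ILCP replicate 1.

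Of 18 tested genes that interferon-gamma is known to induce, 6 were higher in the comparison of ILCP with CLP, 10 in that of ILC1/3P with CLP and 8 in that of ILC1/3P with ILCP, and 0 were lower in each (2, 0 and 0 at an unadjusted p under 0.05, and 0 by DESeq2). With library size alone the counts higher were 4, 7 and 3, and without 1 library they fell as low as 2 (without CLP replicate 2), 9 and 4 (without ILCP replicate 3 or ILC1/3P replicate 2). The list's median log2 differences were 0.58, 2.26 and 1.91, beside the all-gene medians above. The shares of all genes called higher were 3.91%, 11.8% and 8.06%. Igtp, an interferon-induced GTPase, averaged 47.2 ± 6.82, 138 ± 18.05 and 510.0 ± 220 CPM and was called in all 3 comparisons (1.55, 3.43 and 1.88; adjusted p = 0.00467, 2.71e-05 and 0.00197), as it was without each library in turn. Psmb9, a subunit of the immunoproteasome, had 69.5 ± 6.11, 62.3 ± 14.9 and 337 ± 138 CPM and was higher in ILC1/3P than in CLP (2.28, adjusted p = 0.000397) and than in ILCP (2.44, adjusted p = 0.000834). Cxcl9, a chemokine gene of the same response, had no counts in any library.

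Tnf acts through NF-κB, and 13 genes of NF-κB feedback were tested. Among all genes, 3.91%, 11.8% and 8.06% were called higher in the 3 comparisons and 2.87%, 11.7% and 8.25% lower. In ILCP against CLP 4 were higher and 1 lower, in ILC1/3P against CLP 3 were higher and 1 lower, and in ILC1/3P against ILCP 1 was higher and 0 lower (0 also at an unadjusted p under 0.05 and by DESeq2), with medians of 0.31, 1.06 and 0.02. The first count fell to 2 higher without CLP replicate 3, and the last to 0 without ILC1/3P replicate 2 and with library size alone. Tnfaip3, which encodes the inhibitor A20, averaged 18.8 ± 4.65, 142 ± 90.4 and 305 ± 31.9 CPM and was higher than in CLP by 2.92 ± 0.52 (adjusted p = 0.00451) and 4.02 ± 0.56 (adjusted p = 0.000397). Nfkbia, which encodes the inhibitor IκBα, averaged 193 ± 23.0, 699 ± 112 and 2085 ± 1087 CPM, with differences from CLP of 1.86 ± 0.29 (adjusted p = 0.00195) and 3.43 ± 0.32 (adjusted p = 3.78e-05). The second of these was 2.77 without ILC1/3P replicate 2.

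Genes that regulate mRNA decay, some of whose products bind AU-rich elements, were read beside the sequences shown above. Of 10 such genes and their partners, 0 were called in ILCP against CLP by edgeR (1 higher and 3 lower at an unadjusted p under 0.05, 3 lower by DESeq2), and 3 were called lower in ILC1/3P against each other population (Zfp36, Elavl1, Rc3h2), a count that was 1 against ILCP without ILC1/3P replicate 2. None was called higher in ILC1/3P by edgeR (0), while an unadjusted p under 0.05 gave 1 higher against CLP and 2 against ILCP, and DESeq2 gave 0 and 2. Of all genes, edgeR called 11.7% lower in ILC1/3P against CLP and 8.25% against ILCP. Zfp36, which encodes tristetraprolin, a protein that promotes decay of such mRNAs, averaged 817 ± 71.4, 400.5 ± 214 and 123 ± 6.42 CPM and was lower in ILC1/3P than in CLP by a log2 difference of -2.73 ± 0.41 (adjusted p = 0.000662). Elavl1, which encodes the stabilising protein HuR, averaged 302 ± 32.3, 249 ± 39.0 and 92.1 ± 30.6 CPM and was lower than in CLP by -1.71 ± 0.29 (adjusted p = 0.00142). Against ILCP both calls were lost without ILC1/3P replicate 2 (adjusted p = 0.0786 and 0.0574). The calls of Rc3h2 were lost in 7 and 8 of 14 alternative settings.

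**Figure D4:**
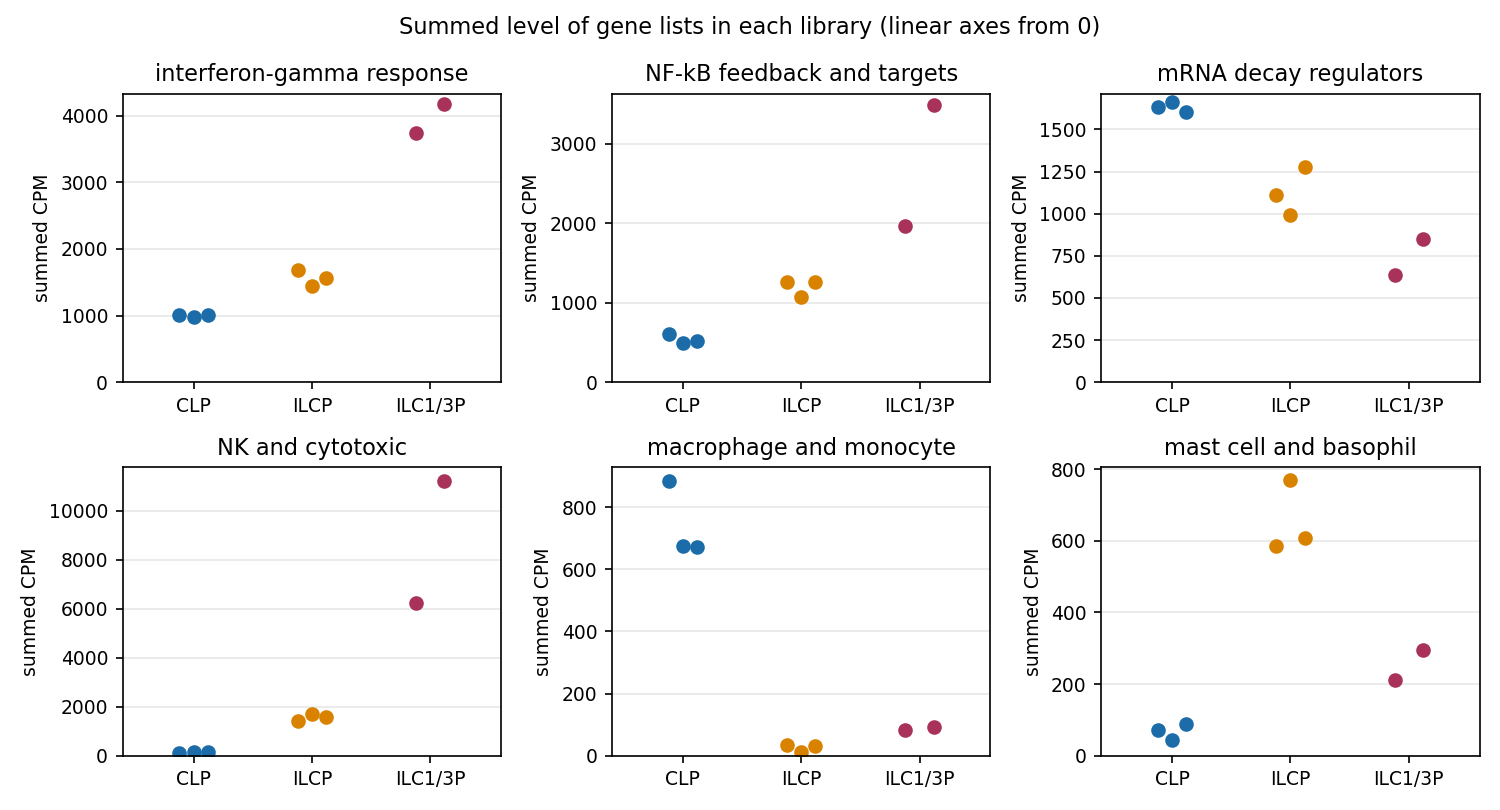
Summed CPM of the genes of 6 lists in each CLP, ILCP and ILC1/3P library, 1 dot per library, on linear axes that start at 0. The interferon-gamma response and NK lists are highest in both ILC1/3P libraries, macrophage and monocyte genes in the 3 CLP libraries, and mast cell and basophil genes in the 3 ILCP libraries. The macrophage and monocyte sum in CLP is mainly Mpo and Lyz2, and the mast cell and basophil sum in ILCP is nearly all Cpa3 and Kit.

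Because Ccl3 and Ccl4 are also made by myeloid cells, and Ifng and Ccl5 by T cells and NK cells, markers of such cells were summed in every library. The 15 macrophage and monocyte genes summed to between 671 and 886 CPM in CLP, between 12.4 and 33.4 in ILCP and between 82.4 and 93.6 in ILC1/3P, and so were lowest in ILCP. In CLP the sum was mainly Mpo (534 ± 154 CPM) and Lyz2 (135 ± 27.4 CPM), and 5 defining macrophage genes (Adgre1, C1qa, Marco, Cd5l and Vsig4) had no counts. In ILC1/3P, Mpo had 1 count in all and Lyz2 averaged 39.9 ± 1.07 CPM. There 6 of the 15 had no counts, Adgre1, Fcgr1, Marco, Cd5l and Vsig4 among them. Of 7 tested, 2 were lower in each of ILCP and ILC1/3P against CLP (Mpo and Lyz2), and 1 was higher in ILC1/3P against ILCP (Lyz2). None was called the other way, also at an unadjusted p under 0.05 and by DESeq2. Lyz2 differed by -4.33 in ILCP against CLP (adjusted p = 5.56e-05) and by 2.57 in ILC1/3P against ILCP (adjusted p = 0.00197). Dendritic cell genes were lowest in ILCP too, with sums of 578 to 832 CPM in CLP, 60.6 to 82.9 in ILCP and 145 to 172 in ILC1/3P over 10 genes, of which Flt3, also the sort marker, made up most in CLP. For both lists, the shares of all genes called were 3.91%, 11.8% and 8.06% higher and 2.87%, 11.7% and 8.25% lower. Of 9 dendritic cell genes tested, 5 were lower and 1 higher in ILCP against CLP, and 3 lower and 2 higher in ILC1/3P against CLP. In ILC1/3P against ILCP, 2 were higher and 0 lower (0 lower also at an unadjusted p under 0.05 and by DESeq2). The 5 became 3 without any 1 of the CLP or ILCP libraries, the 2 against CLP became 1 without CLP replicate 2 or 3, the 3 became 2 without ILC1/3P replicate 2, and the 2 against ILCP became 1 without any 1 library other than ILC1/3P replicate 2. Clec9a, a defining gene of dendritic cell types, had no counts in any population, and Siglech, another, had none in ILCP and ILC1/3P. Batf3 had no counts in CLP and was called higher in ILCP (9.19, adjusted p = 0.00195) and ILC1/3P (10.06, adjusted p = 0.000589). Cd209a was called higher in ILC1/3P than in ILCP (8.71, adjusted p = 0.0292), a call lost without any 1 of the CLP or ILCP libraries. Bst2 averaged 29.4 ± 13.3, 5.28 ± 1.40 and 92.2 ± 53.8 CPM in CLP, ILCP and ILC1/3P. The part of myeloid and dendritic cells in the Ccl3 and Ccl4 values was not tested. Mast cell and basophil genes summed to between 44.9 and 87.3 CPM in CLP, between 584 and 769.8 in ILCP and between 211 and 295 in ILC1/3P, nearly all of it Cpa3 and Kit, and 7 of the 10, Fcer1a, Ms4a2 and Mcpt8 among them, had no counts in any population.

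The summed NK and cytotoxic genes, 12 in all, followed the order of Ifng. The sum was 97.7 to 148 CPM in CLP, 1412 to 1713 in ILCP and 6219 to 11229.9 in ILC1/3P. Nkg7 and Gzma were the most abundant of these genes in ILCP and ILC1/3P. Of 11 tested, the comparison of ILCP with CLP called 5 higher and 1 lower, and those of ILC1/3P with CLP and ILCP called 10 and 7 higher and 0 lower (0 also at an unadjusted p under 0.05 and by DESeq2). The 10 became 8 without CLP replicate 1 or 3, and the number also fell without ILC1/3P replicate 2, a fit that leaves 1 ILC1/3P library. Unlike Ifng, Klrb1c was the gene lower in ILCP than in CLP (-1.98, adjusted p = 0.0229). That call was lost without any 1 of the CLP libraries, without ILCP replicate 2 and with only the 2 groups compared (adjusted p up to 0.212). Klrb1c was higher in ILC1/3P than in CLP (5.01, adjusted p = 4.84e-05). Over all genes, 3.91%, 11.8% and 8.06% were called higher in the 3 comparisons and 2.87%, 11.7% and 8.25% lower. Nkg7, a granule protein of cytotoxic cells, averaged 114 ± 32.2, 1485 ± 107 and 5421 ± 2931 CPM, and Ncr1, which encodes the activating receptor NKp46, went from 0 counts in CLP to 1.18 ± 1.59 CPM in ILCP and 349 ± 65.8 in ILC1/3P. Prf1, which encodes perforin, had no counts in ILC1/3P. T cell genes summed to between 351 and 718 CPM in CLP, between 4683 and 6493 in ILCP and between 7049 and 9324 in ILC1/3P, and outside CLP were mainly Cd3g and the constant segments Trbc1 and Trbc2. Of the 10, 6 were called higher in ILCP and 5 in ILC1/3P against CLP, and 0 lower in each (2 and 1 lower at an unadjusted p under 0.05 and by DESeq2). Beside these, 3.91% and 11.8% of all genes were called higher in the same comparisons. Cd3d had 3 counts in CLP, 1643 in ILCP and 1496 in ILC1/3P (adjusted p = 1.23e-05 and 4.61e-06 against CLP). Cd8a, with 0, 301 and 53 counts, was called in both (adjusted p = 0.0279 and 0.0269), and Cd8b1, with 0, 208 and 0, in ILCP (adjusted p = 0.0286). Without ILC1/3P replicate 1 the log2 difference of Cd8a between ILC1/3P and CLP was 0, so all 53 counts lay in that library. These Cd8a and Cd8b1 calls against CLP were lost without any 1 of the CLP libraries (adjusted p up to 0.0928), without ILCP replicate 1 and, in ILCP, without replicate 3; that of Cd8a in ILCP was also lost without ILCP replicate 2 and that in ILC1/3P without ILC1/3P replicate 1. Among the rest, Cd4 had no counts in ILCP and ILC1/3P, Cd5 none in ILCP, and Cd3e had 146 counts in ILCP and 9 in ILC1/3P. The part of mature NK or T cells in the Ifng, Csf2 and Ccl5 values was not tested.

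Exons of 3 members overlap those of other genes. For Csf2 and Xcl1 reads could be shared, since the use of strand in counting is not given in the sources used here. In GENCODE M21, Ifng shares 336 of its 1295 exonic bases with Gm49751 on the same strand, a gene that the deposited table does not hold. Csf2 shares 96 of 800 with the antisense gene Gm12223, and Xcl1 98 of 523 with Gm20743 on the opposite strand. Gm12223 followed Csf2 at a lower level, at 0 in CLP, between 0.711 and 1.83 CPM in ILCP and at 12.8 and 13.0 CPM in ILC1/3P, and Gm20743 had 6.15 CPM in 1 ILC1/3P library and no counts elsewhere.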

How the data were processed

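Bulk RNA of 3 sorted populations was analysed in 8 libraries. Per the labels' protocols, cell lysates went into SMARTer Ultra Low cDNA synthesis and PCR amplification and were sequenced on a NovaSeq6000. The authors deposited raw counts for each gene beside FPKM of the same libraries. Coordinates follow mm10, per the submitters' processing notes, whereas aligner, counter, annotation and strand use were not given in the sources used here. Without molecular identifiers, every interval and floor covers counting error only. Columns were mapped by title, and 0 were left unmapped. Total counts of 4991939 to 8082476 per library set the precision.

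The test was edgeR 4.0.16 (R 4.3.3) with filterByExpr, TMM and a robust quasi-likelihood fit, 1 mean per group over all 8 libraries, two-sided, with Benjamini-Hochberg adjustment over 13436 genes. BCV was 0.679 and 5 residual degrees of freedom remained. Standard errors come from the F statistic. The code was tested on simulated data first. Where a group had no counts, folds use 3 counts pooled over its libraries as the floor, and with 1 to 3 counts a 95% counting interval. FPKM gave ranks, ratios and levels between genes, and correlations used log2 CPM with a prior count of 2.

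The members and gene lists were chosen with earlier results of these data known. The naming rule covered the 7 members, up to 3 called genes of each list with the smallest p per comparison, genes within 100 kb of a member, the 3 genes most like each member, the sort markers and the 2 most abundant genes of each other-cell list. Other genes named (Ifngr1, Tbx21, Xcr1, Csf2ra, Cxcl9, Prf1, Cd3e, Cd8a and genes with no counts) were chosen after their values were seen. One gene of the receptor list is not reported here. Sequences come from GENCODE M21 transcripts and RefSeq promoters. Alternatives were DESeq2 1.42.0, its size factors in edgeR, library size only, no filter, only the 2 groups compared, a replicate block and leaving out each library.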

Additional observations from a re-analysis of the deposited data

How the results depend on the processing

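Over the alternatives, 284 of 292 values of members kept their direction and side of the threshold, 1 was no longer called (Ccl4 in ILC1/3P against ILCP with no filter, 5.72) and 7 changed sign, none of them called: Tnf in ILCP against CLP without ILCP replicate 2 (-0.016), Ccl3 in ILC1/3P against CLP with the replicate block (0.22), without CLP replicate 3 (0.13) and without ILC1/3P replicate 1 (0.08), and Ccl5 in ILC1/3P against ILCP with library size only (-0.54), with the replicate block (-0.19) and without ILC1/3P replicate 2 (-0.40). Leaving out 1 library, these 3 ran from -0.016 to 0.81, from -0.35 to 0.13 and from -0.40 to 0.50. The counts of called members equalled the main ones except with no filter, where 4 in place of 5 were higher in ILC1/3P against ILCP. Xcl1 in ILCP against CLP gave no value without CLP replicate 2, since no counts remained, and none in the fit of only these 2 groups, where its 2 counts did not pass the filter. Where a fit left 1 ILC1/3P library, it was assumed to vary like the other groups.

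Counts over all genes moved more. In ILCP against CLP, 526 genes higher and 386 lower became 931 and 808 with DESeq2, and 602 lower with no filter. In ILC1/3P against CLP, library size only gave 946 higher and 2807 lower, and against ILCP 474 higher and 2141 lower, where DESeq2 gave 1757 lower. Leaving out 1 library gave 347 to 613 higher and 215 to 502 lower in ILCP against CLP, 1151 to 1639 and 1092 to 1584 in ILC1/3P against CLP, and 623 to 1066 and 689 to 1233 in ILC1/3P against ILCP. The cause was not tested.

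The correlation of same-numbered libraries, taken on deviations from each group's mean, ran from -0.033 to 0.087 over 7 pairs. With 2 or 3 libraries a group such deviations constrain each other, so these values cannot settle whether the replicate numbers pair the libraries. With the numbers as a block, 445 genes were higher and 296 lower in ILCP against CLP, 1392 and 1232 in ILC1/3P against CLP and 944 and 809 in ILC1/3P against ILCP, and the member calls were 3 and 2, 4 and 0, and 5 and 0. With 2 or 3 libraries a group, the intervals of Tnf are wide, and depth limits Xcl1 and Ccl4 in ILCP.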

Other observations

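Other cytokine genes of lymphoid cells were read beside the members, where 3.91%, 11.8% and 8.06% of all genes were called higher in the 3 comparisons. Of 14 tested, 7 were higher in the comparison of ILCP with CLP, 7 in that of ILC1/3P with CLP and 2 in that of ILC1/3P with ILCP, and 0 were lower in each, by edgeR, by DESeq2 and at an unadjusted p under 0.05. The 2 became 0 without ILCP replicate 3 and with library size alone. Il22, the IL-22 gene that type 3 innate lymphoid cells are known for, had 0 counts in every CLP library, a mean of 203 ± 51.97 CPM among ILCP and one of 154 ± 80.6 among ILC1/3P, which put ILCP above CLP by a factor of at least 1425 (adjusted p = 6.04e-06). ILC1/3P against ILCP gave -0.40 ± 0.39 (adjusted p = 0.538). Flt3l, the ligand of Flt3, averaged 3.39 ± 1.17, 110 ± 29.3 and 107 ± 57.0 CPM, higher than in CLP by 5.03 (adjusted p = 4.3e-05) and 4.98 (adjusted p = 3.79e-05), the second of which was 4.30 without ILC1/3P replicate 2. Il3, Il9, Il17a and Il21 had no counts in any library.

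Immediate early genes, which can be induced while cells are handled, did not move one way. The shares over all genes were 3.91%, 11.8% and 8.06% higher and 2.87%, 11.7% and 8.25% lower in the 3 comparisons. In ILCP against CLP 1 of 23 was higher and 3 lower, in ILC1/3P against CLP 5 and 7, and in ILC1/3P against ILCP 3 and 6, and with library size alone the last 2 were 2 and 9, and 1 and 7. Without 1 library the numbers higher fell to 3 of 5 (without CLP replicate 2 or 3, ILCP replicate 3 or either ILC1/3P replicate) and to 1 of 3 (without ILCP replicate 3 or ILC1/3P replicate 2), and the 6 lower to 4 (without ILC1/3P replicate 2). Cd69, an early activation marker, averaged 1723 ± 417, 391 ± 110.0 and 3288 ± 218 CPM in CLP, ILCP and ILC1/3P. It was lower in ILCP than in CLP (-2.14, adjusted p = 0.000481) and higher in ILC1/3P than in ILCP (3.07, adjusted p = 0.00019). Dusp1 went the other way in both, at 2.30 (adjusted p = 0.00021) and -1.39 (adjusted p = 0.0087). The latter ran from -2.02 to -1.10 over the alternative settings. Junb, Ier2 and Nr4a1 were also lower in ILC1/3P than in ILCP (-1.98, -2.09 and -2.58). Myc averaged 259 ± 31.9, 39.2 ± 7.99 and 15.1 ± 2.33 CPM, lower than in CLP by -2.72 (adjusted p = 6.84e-05) and -4.10 (adjusted p = 1.42e-05).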
